A study of Mus musculus with 78 samples.

Results

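H3K9me3, the trimethylated lysine 9 of histone H3 that marks heterochromatin, was mapped by ChIP–seq in mouse embryonic stem cells (mESCs) before and after the corepressor TRIM28 was degraded. The V6.5 mESCs of both groups carried a degradation-sensitive FKBP tag, together with an mRuby2 reporter, knocked in at the N terminus of TRIM28. The line came from picked single colonies, and the labels name no second clone. Libraries labelled H3K9me3_ESC_dTAG_24h received 500 nM dTAG-13, a small molecule that recruits the tagged protein to a ubiquitin ligase, for 24 h, and those labelled H3K9me3_ESC_DMSO received the solvent alone. Each group had 3 libraries, 6 of the 78 samples of the series. Cells were grown in serum and LIF and were depleted of mouse embryonic fibroblast feeders on gelatin before the experiment. The labels do not say that replicates were separate cultures, so p-values measure the spread between these samples, which may be technical.

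The 6 peak lists held 614142 peaks in all, called separately in each library and very unequal in number. To compare them, the 10000 peaks with the highest fold enrichment of each library, 60000 in all, were taken as its strongest peaks. Fold enrichment is the peak's ChIP signal over the background that the peak caller estimated in that library, so it ranks peaks within a library and does not measure the amount of H3K9me3 per cell. The strongest peaks were 8.45%, 7.91% and 9.56% of the deposited peaks in the DMSO libraries. They were 87.2%, 9.46% and 6.77% in the dTAG-13 libraries. Replicate 1 of dTAG-13 therefore stood apart, with only 11474 deposited peaks, and values are also given without it where they rest on it. The lists hold no read numbers, so the depth of each library is unknown.

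TRIM28 (KAP1) is brought to DNA by KRAB zinc finger proteins, and it recruits the H3K9 methyltransferase SETDB1 and the HP1 proteins that read H3K9me3. In mESCs this pathway is known for silencing endogenous retroviruses (ERVs), for keeping H3K9me3 at imprinted regions through the KRAB zinc finger protein ZFP57, and for marking clusters of zinc finger genes. Other H3K9me3, for example at pericentromeric satellites, is placed by the methyltransferases SUV39H1 and SUV39H2. RNA-seq of the same line showed pluripotent cells, with 1163, 1181 and 1141 TPM (a length-corrected share of a library's transcripts) of the pluripotency factor gene Pou5f1 in the DMSO libraries. The 6 feeder markers summed to 18.9 to 19.9 TPM there, of which Lum was listed at 0 in every library. Trim28 RNA, which the degron does not target directly, was at 622 to 626 TPM in DMSO and 365 to 382 TPM after 24 h of dTAG-13.

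The sequences behind the main patterns are shown first. At 5 imprinted regions every DMSO library and no dTAG-13 library had a strongest peak, and a 150-base stretch outside exons is given for 4 of them from RefSeq's GRCm38 (mm10) assembly, plus strand, 5′ to 3′. Capitals mark TGCCGC or its reverse complement, the unmethylated spelling of the ZFP57 motif, searched on both strands, where a forward and a reverse match may share bases. The stretches were placed where such matches lie close together, so their number is not a finding. In the fifth, at Nnat, no such stretch outside exons held a match.
Gnas chr2:174295807-174295956: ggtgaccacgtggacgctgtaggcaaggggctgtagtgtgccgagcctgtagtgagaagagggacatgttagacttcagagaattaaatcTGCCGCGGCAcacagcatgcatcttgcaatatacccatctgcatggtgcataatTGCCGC
Mest chr6:30737576-30737725: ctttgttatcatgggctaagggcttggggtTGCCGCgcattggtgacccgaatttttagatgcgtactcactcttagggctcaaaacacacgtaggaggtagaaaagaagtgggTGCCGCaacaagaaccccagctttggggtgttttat
Nap1l5 chr6:58907077-58907226: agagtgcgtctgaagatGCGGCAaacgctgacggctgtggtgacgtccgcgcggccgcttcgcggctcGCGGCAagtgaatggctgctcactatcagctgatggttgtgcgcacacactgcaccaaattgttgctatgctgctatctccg
H19 chr7:142580225-142580374: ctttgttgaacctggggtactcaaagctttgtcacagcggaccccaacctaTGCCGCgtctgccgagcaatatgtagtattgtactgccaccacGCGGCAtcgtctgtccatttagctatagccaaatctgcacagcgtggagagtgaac

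Each of these stretches lies inside a lost region. The H19 stretch lies between genes, 5′ of the H19 start, and the Nap1l5 stretch lies in an intron of Herc3. The Gnas and Mest stretches lie in introns of those genes. For contrast, the middle 150 bases of 3 other regions are shown, with CpG in capitals. Lost region 3 is the third strongest lost region and overlaps an exon of Gm14445, while the stretch shown lies in no gene. Kept region 2, near the centromeric end of chromosome 10, and gained region 1 are visibly tandem repeats.
Lost region 3 chr2:175044144-175044293: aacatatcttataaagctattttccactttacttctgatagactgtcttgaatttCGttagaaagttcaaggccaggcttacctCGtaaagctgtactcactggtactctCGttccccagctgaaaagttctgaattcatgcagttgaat
Kept region 2 chr10:3114127-3114276: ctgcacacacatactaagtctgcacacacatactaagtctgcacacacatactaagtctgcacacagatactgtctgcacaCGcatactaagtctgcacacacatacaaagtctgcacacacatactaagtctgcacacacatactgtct
Gained region 1 chr7:64470066-64470215: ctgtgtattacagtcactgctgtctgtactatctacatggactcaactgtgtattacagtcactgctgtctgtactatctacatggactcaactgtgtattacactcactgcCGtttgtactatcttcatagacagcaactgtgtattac

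The strongest peaks were narrower after TRIM28 loss. Their median width was 1574.5, 2809.5 and 2176.5 bp in the DMSO libraries and 296, 785 and 1037 bp in the dTAG-13 libraries, so the groups did not overlap. The mean of the medians was 2187 ± 618 bp (SD, n = 3) in DMSO and 706 ± 377 bp (SD, n = 3) in dTAG-13. This was a difference of -1481 bp (two-sided exact permutation test, p = 0.1, the smallest p that 3 libraries against 3 allow). Without replicate 1 of dTAG-13 the difference was -1276 bp (exact permutation p = 0.2).

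The change lay at both ends of the width range. Broad peaks of over 5 kb were 9.29%, 24.2% and 15.1% of the strongest peaks in DMSO and 0.53%, 2.24% and 4.01% in dTAG-13. Narrow peaks of under 500 bp were 8.46%, 2.96% and 5.64% in DMSO and 74.7%, 27.2% and 18.1% in dTAG-13. The very broadest peaks did not follow this. The widest strongest peak measured 23641, 59946 and 48131 bp in DMSO and 34890, 92371 and 116642 bp in dTAG-13. Over all deposited peaks, most of them weak, the median width was 318, 377 and 363 bp in DMSO and 278, 281 and 291 bp in dTAG-13.

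**Figure D1:**
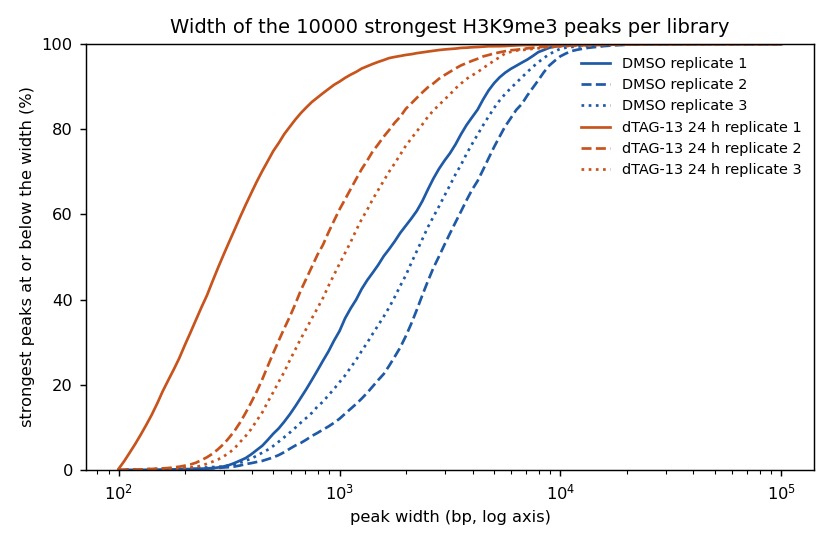
Cumulative share of the 10000 strongest H3K9me3 peaks (y axis, %) at or below each width (x axis, bp, log scale), 1 line per library, DMSO in blue and 24 h dTAG-13 in orange. The dTAG-13 lines lie to the left of the DMSO lines, with medians of 296, 785 and 1037 bp against 1574.5, 2809.5 and 2176.5 bp, and dTAG-13 replicate 1 lies farthest left.

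The strongest peaks were distributed differently over the chromosomes. Since every library holds the same number of them, more on one chromosome means fewer on others. The groups did not overlap on 15 of 21 chromosomes, with dTAG-13 above DMSO on 5 and below it on 10. The ratio of means was highest on chromosomes Y, 12, 7 and 14. Chromosome 7 held 677, 661 and 663 strongest peaks in DMSO and 1241, 1267 and 1122 in dTAG-13, or 1.81 times as many. Chromosome 12, which includes the immunoglobulin heavy chain locus, held 444, 470 and 477 in DMSO and 1181, 726 and 1042 in dTAG-13, or 2.12 times as many. The Y chromosome held 74, 93 and 105 in DMSO and 180, 220 and 197 in dTAG-13, or 2.19 times as many.

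The ratio was lowest on chromosomes 19, 9 and 2. Chromosome 19 held 124, 114 and 127 strongest peaks in DMSO and 43, 71 and 51 in dTAG-13. Chromosome 9 held 490, 446 and 454 in DMSO and 193, 309 and 199 in dTAG-13, and chromosome 2 held 617, 625 and 623 in DMSO and 252, 422 and 332 in dTAG-13. On chromosomes 10, 11 and 13 replicates 1 and 3 of dTAG-13 lay above DMSO while replicate 2 lay within its range or below it, so those groups overlapped. The exact permutation p was 0.1 on each of the 15 chromosomes, or 0.14 after Benjamini-Hochberg adjustment over the 21 chromosomes, and 3 libraries against 3 cannot pass 0.05.

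**Figure D2:**
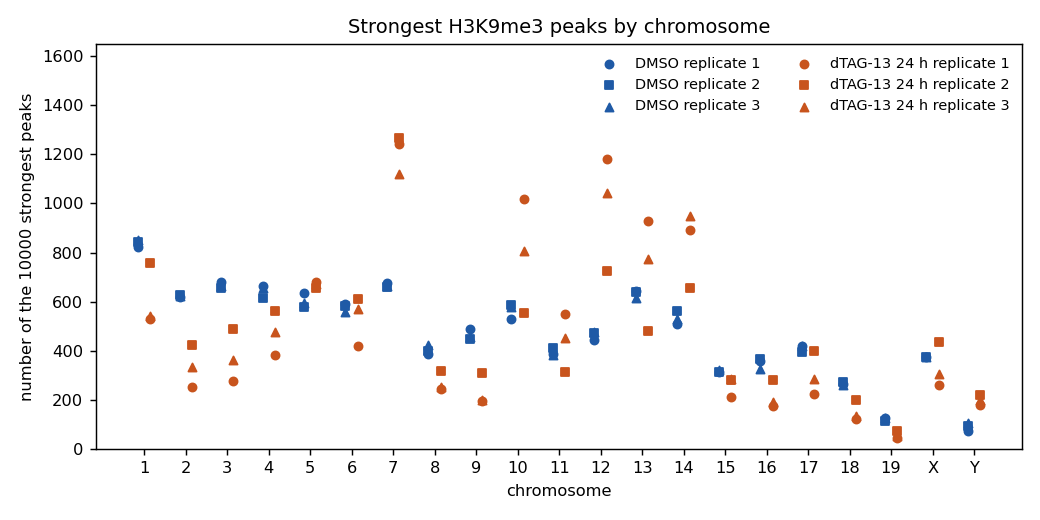
Number of the 10000 strongest H3K9me3 peaks of each library (y axis) on each mouse chromosome (x axis), 1 point per library, DMSO in blue and 24 h dTAG-13 in orange. Chromosome 7 shows 661 to 677 peaks in DMSO and 1122 to 1267 in dTAG-13, while chromosome 9 shows 446 to 490 and 193 to 309.

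In windows of 1 Mb the shift became local. Of 1632 windows with a mean of at least 2 strongest peaks, limma on log2(peak number + 1) called 132 higher (8.09%) and 296 lower (18.1%) in dTAG-13 at an adjusted p below 0.05. By the kb covered per window instead of the number of peaks, the balance was 26 higher and 1387 lower. By number, the higher windows held 764, 709 and 758 of the strongest peaks in DMSO and 3455, 2972 and 3461 in dTAG-13. The lower windows held 2145, 2115 and 2112 in DMSO and 373, 598 and 402 in dTAG-13. These counts moved with single libraries. They were 41, 47 and 48 higher and 57, 65 and 58 lower without DMSO replicates 1, 2 and 3 in turn, 211 higher and 460 lower without dTAG-13 replicate 2, 74 higher without dTAG-13 replicate 3, and 100 higher and 211 lower without dTAG-13 replicate 1. Over all deposited peaks limma called 0 of 1639 windows, while 397 had an unadjusted p below 0.05.

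The 5 largest rises lay in these windows. The 1 Mb of chromosome 7 from 38 Mb, with Uri1, Ccne1 and a cluster of predicted Gm genes, held 4, 1 and 3 strongest peaks in DMSO and 63, 50 and 57 in dTAG-13 (log2 difference 4.07, SE 0.35, limma adjusted p = 0.00013). The Klra cluster on chromosome 6 from 130 Mb, which encodes Ly49 receptors of natural killer cells, held 16, 9 and 9 in DMSO and 102, 119 and 173 in dTAG-13. A Vmn1r cluster on chromosome 7 from 22 Mb, encoding vomeronasal pheromone receptors, held 11, 5 and 4 in DMSO and 60, 66 and 66 in dTAG-13. The neighboring windows of chromosome 12 from 114 and 115 Mb hold 89 and 54 immunoglobulin heavy chain variable (Ighv) genes. They held 12, 11 and 12 and then 17, 16 and 17 in DMSO, against 95, 109 and 117 and then 142, 120 and 177 in dTAG-13. In each of the 5 windows no dTAG-13 library overlapped DMSO, which their choice as the largest called rises makes likely and which is no further support.

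These windows already held many weaker peaks before TRIM28 loss. In the Klra window the deposited lists held 263, 468 and 387 peaks in DMSO and 126, 538 and 529 in dTAG-13. In the first Ighv window they held 296, 338 and 334 in DMSO and 108, 408 and 433 in dTAG-13. In both windows dTAG-13 replicates 2 and 3 held more deposited peaks than any DMSO library, and replicate 1, with its short list, held fewer. The count of strongest peaks measures rank within a library, and whether H3K9me3 itself rose there was not tested. Of the 217 immunoglobulin heavy chain genes in tested windows, 215 lay in windows called higher and 0 in windows called lower, and all 14 Klra genes lay in windows called higher. Clustered genes share a window and its call, so these genes are not separate observations. The windows named above alone held 89 and 54 Ighv genes and 11 Klra genes. Vomeronasal receptor genes lay in windows called higher and in windows called lower. Of 323 Vmn1r genes 89 lay in windows called higher (27.6%) and 99 in windows called lower (30.7%), and of 242 Vmn2r genes 42 (17.4%) and 106 (43.8%) did. Of all 32241 genes in tested windows, 2577 (7.99%) lay in windows called higher and 7731 (24.0%) in windows called lower.

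The 5 largest falls lay in windows with 0 strongest peaks after TRIM28 loss. Chromosome 9 from 8 Mb, with Yap1, Pgr and Trpc6, held 9, 9 and 10 strongest peaks in DMSO and 0 in each dTAG-13 library (log2 difference -3.37, SE 0.34, limma adjusted p = 0.0003). Chromosome 5 from 110 Mb, with Zfp932, Zfp605, Ep400 and Pole, held 11, 7 and 9 in DMSO and 0 in each dTAG-13 library. The Fbxw cluster on chromosome 9 from 109 Mb held 7, 9 and 9 in DMSO. The window of chromosome 10 from 18 Mb, with Perp, Arfgef3 and Nhsl1, held 7 in each DMSO library. The Nat8 cluster beside Alms1 on chromosome 6 from 85 Mb held 6, 7 and 7 in DMSO. Those 3 windows also held 0 in each dTAG-13 library. Weaker peaks were still deposited there, for example 0, 31 and 34 peaks around Yap1 in dTAG-13 against 64, 67 and 60 in DMSO. Of 1267 Olfr genes in tested windows, 359 lay in windows called lower (28.3%, near the 24.0% of all genes) and 13 in windows called higher (1.03%). Of 316 Zfp genes, 128 (40.5%) and 9 (2.85%) did.

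**Figure D3:**
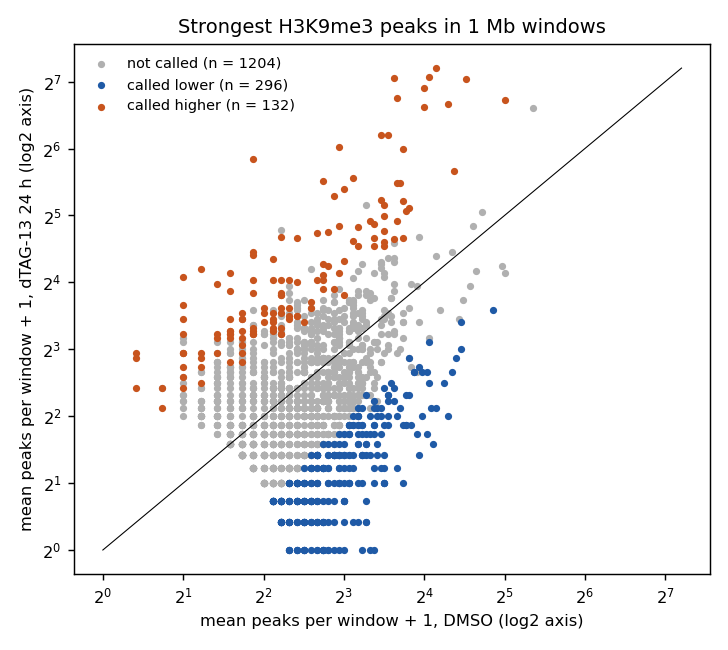
Mean number of strongest H3K9me3 peaks plus 1 in each 1 Mb window, DMSO on the x axis and 24 h dTAG-13 on the y axis, both log2 axes, for the 1632 windows tested, with the line of equality. The 132 windows called higher by limma (orange) reach over 100 peaks in dTAG-13, and the 296 called lower (blue) lie below the line, many of them at 0 in dTAG-13.

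Position relative to genes did not separate the groups by the usual measures. Within 1 kb of a gene start lay 4.80%, 6.36% and 5.37% of strongest peaks in DMSO and 5.17%, 5.30% and 5.34% in dTAG-13 (difference -0.24 points, exact permutation p = 0.7). Inside genes lay 24.6%, 26.0% and 26.0% in DMSO and 26.0%, 22.8% and 25.2% in dTAG-13 (-0.88 points, exact permutation p = 0.7). Outside genes lay 70.6%, 67.7% and 68.6% and then 68.8%, 71.9% and 69.5% (1.12 points, exact permutation p = 0.4). The sign of the first difference turned to 0.18 points without DMSO replicate 2 and that of the second to 0.06 points without dTAG-13 replicate 2, so no direction can be given.

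The kind of gene nearby differed more. The median distance to the nearest start of any annotated gene was 20.9, 21.2 and 21.2 kb in DMSO and 19.7, 20.9 and 21.1 kb in dTAG-13 (exact permutation p = 0.2). Counting only the 17885 genes that reached 1 TPM in 3 or more RNA-seq libraries, it was 116, 116 and 117 kb in DMSO and 172, 206 and 213 kb in dTAG-13. That difference of 80.6 kb had an exact permutation p of 0.1, with no overlap between the groups. The strongest peaks after TRIM28 loss thus lay farther from genes with RNA.

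Strongest peaks of DMSO overlapped those of dTAG-13 less often than those of other DMSO libraries. Between DMSO libraries 58.9% to 72.2% of strongest peaks overlapped one another (median 64.5% of 6 ordered pairs). Only 23.6% to 34.5% of DMSO strongest peaks overlapped a strongest peak of a dTAG-13 library (median 26.5% of 9 pairs), and 22.9% to 45.5% of those of dTAG-13 overlapped one of DMSO (median 38.1%). Between dTAG-13 libraries the share was 34.1% to 62.7% (median 38.5%), lower than within DMSO and close to the share of dTAG-13 peaks that overlapped DMSO. Replicate 2 of dTAG-13 shared more with DMSO, at 39.2% to 45.5%, than with replicates 1 and 3, at 34.1% and 38.4%. Replicates 1 and 3 instead shared more with the other dTAG-13 libraries than with any DMSO library. An overlap of 1 bp is met more easily where the other library's peaks span more bases. Per DMSO library the strongest peaks added up to between 22.9 and 36.6 Mb. For dTAG-13 replicates 1, 2 and 3 the sums were only 4.89, 12.6 and 16.1 Mb. How far these lengths set the shares was not tested.

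Merging the strongest peaks of the 6 libraries gave 24673 regions. A region was called lost where all 3 DMSO libraries and no dTAG-13 library had a strongest peak, gained in the reverse case, and kept where all 6 had one. There were 1793 lost regions (7.27% of the merged regions), 712 gained regions (2.89%) and 791 kept regions. The balance depended on holding the number of peaks equal. At equal covered length it was 84 lost and 360 gained, and over all deposited peaks 12521 lost and 30 gained. Leaving out dTAG-13 replicate 1, 2 or 3, which relaxes the rule, gave 1369, 1902 and 1124 gained regions. Leaving out DMSO replicate 1 gave 2693 lost regions, and leaving out dTAG-13 replicate 3 gave 1367 kept regions. Lost regions were spread over 1132 windows of 1 Mb, and the 10 fullest windows held 69 of them (3.85%). Gained regions lay in 305 windows, and the 10 fullest held 256 of them (36.0%).

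The classes also differed in the sequence of their centres. Lost regions had a median of 14 CpG in their central 1 kb, kept regions 11, gained regions 7 and all merged regions 9. Their whole median width was 3715 bp for lost, 2330 bp for gained, 7676 bp for kept and 1286 bp for all regions, which follows in part from merging peaks of 3 or 6 libraries. The letters TGCCGC occurred, on either strand, in the central 1 kb of 18.6% of lost, 14.5% of kept and 2.25% of gained regions, and of 9.14% of all. The CpG number moved with the motif share between lost and gained regions, and its part in that share was not tested. Soft-masked repeats filled a median of 97.1% of the centre of lost regions, 100% of kept regions and 81.4% of gained regions.

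Loss meant a drop below the strongest peaks more often than disappearance. A deposited peak of any strength remained at 26 (1.45%), 1386 (77.3%) and 1318 (73.5%) of the 1793 lost regions in the dTAG-13 libraries, the low first value belonging to the short list of replicate 1. Over all merged regions the share was 28.1%, 80.5% and 81.5%. These include regions built from the dTAG-13 libraries' own strongest peaks, which hold a deposited peak by construction. The comparison therefore cannot show how unusual the loss was. At 285 lost regions no dTAG-13 library had any deposited peak, as at 2545 of all 24673 merged regions. The median fold enrichment at lost regions was 4.64, 3.94 and 3.99 in DMSO and, where a peak remained, 3.49, 2.81 and 2.62 in dTAG-13. Gained regions were in turn rarely new. A deposited peak was present at 93.4%, 98.9% and 96.5% of them in the DMSO libraries, and only 2 had none in any. Over all merged regions, which likewise include those built from DMSO's own strongest peaks, the DMSO shares were also high. They were 85.3%, 92.4% and 87.3%, and 923 had none in any. The median fold enrichment of gained regions went from 3.27, 2.84 and 2.97 in DMSO to 3.92, 3.47 and 3.66 in dTAG-13. Kept regions kept a strongest peak but less of their breadth, with a median of 5476, 7268 and 6349 bp covered in DMSO and 576, 2590 and 2765 bp in dTAG-13. These values describe regions chosen for their ranks and were not tested.

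The strongest lost region, chr8:123425810-123434529, lay in introns of Def8 and Gm20388. Its fold enrichment was 9.87, 7.49 and 7.39 in DMSO and 3.45, 2.87 and 1.43 in dTAG-13. The second, chr11:20017037-20025038, overlapped an exon of Spred2, an inhibitor of Ras–MAPK signaling, at 7.03, 6.12 and 5.15 in DMSO with no deposited peak in any dTAG-13 library. The fifth, chr2:157555411-157565458, covered the imprinted gene Nnat within Blcap at 6.30, 6.52 and 5.25, again with no deposited peak in dTAG-13. Lost region 3, chr2:175039586-175048852, overlapped an exon of Gm14445 at 6.86, 5.71 and 5.61 in DMSO and at 2.81 and 2.52 in dTAG-13 replicates 2 and 3, and region 10 lay beside Gm14444 on the same chromosome. The other 5 lay in Gm8255 and in an intron of Gm4756 on chromosome 12, and between genes near Gm49009, Stox2 and Selenoi. None of the 10 overlapped a listed ERV element.

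The 5 strongest kept regions had their highest fold enrichments in dTAG-13 replicate 1. The regions chr10:3109421-3110450 and chr10:3111240-3117164, at the centromeric end of chromosome 10, had fold enrichments of 10.1, 9.07 and 9.63 and of 11.8, 9.97 and 9.05 in DMSO. In dTAG-13 they had 58.2, 10.4 and 23.8 and 48.7, 10.3 and 25.7. The value of replicate 1 was thus the highest of any peak in the 6 libraries. The third, chr8:14306532-14307370 in an intron of Dlgap2, had 10.1, 6.21 and 6.12 in DMSO and 36.5, 9.20 and 4.41 in dTAG-13. The fourth, chr10:22467626-22472300, overlapped a listed ERV element and had 7.98, 4.96 and 8.73 in DMSO and 15.5, 11.8 and 10.2 in dTAG-13. The fifth lay between genes, with Vmn2r19 as the nearest start.

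The strongest gained region, chr7:64467569-64472712, lay between genes 31.6 kb from the start of Apba2 and had fold enrichments of 2.41, 3.15 and 3.19 in DMSO and 7.62, 4.1 and 6.29 in dTAG-13. The second, chr2:122681270-122682387, overlapped an exon of the zinc transporter gene Slc30a4 at 3.28, 2.79 and 2.91 in DMSO and 4.14, 3.93 and 9.83 in dTAG-13. The others lay in introns of Maml2, Myo16 and Jmy, each of them between 799 and 973 bp wide. The lowest fold enrichment among the strongest peaks was 4.00, 3.34 and 3.48 in DMSO and 3.51, 3.15 and 3.07 in dTAG-13. A gained region therefore need not have a higher fold enrichment in every dTAG-13 library. The Jmy region had 3.89 in DMSO replicate 1 and 3.26 in dTAG-13 replicate 2.

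Fewer ERVs of the MMERVK and MMETn groups had a strongest peak after TRIM28 loss, in every subfamily. These are ERVK elements, and their positions are the full-length elements listed by the study, 1225 in all. A strongest peak overlapped 154, 165 and 152 of 349 MMERVK10C elements in DMSO and 70, 105 and 75 in dTAG-13, a difference of -21.1 points. For MMERVK10D3 it was 31, 33 and 37 of 60 in DMSO and 3, 11 and 6 in dTAG-13, a difference of -45.0 points. The MMERVK9C count went from 75, 87 and 69 of 196 to 10, 8 and 8, and the MMERVK9E count from 35, 50 and 37 of 175 to 7, 7 and 9. For MMETn it went from 214, 237 and 208 of 445 to 44, 80 and 51, a difference of -36.3 points. Each of the 5 differences had an exact permutation p of 0.1, with no overlap between groups.

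Individual elements behaved differently within a subfamily. Of the 94 MMERVK10C elements with a strongest peak in every DMSO library, 35 had none in any dTAG-13 library and 16 had one in all 3. Of the 24 such MMERVK10D3 elements 18 had none, of the 51 MMERVK9C elements 38 had none, and of the 24 MMERVK9E elements 17 had none, with 0, 0 and 1 kept in all 3. Of the 151 MMETn elements 74 had none and 9 had one in all 3. MMERVK10C was the subfamily in which most elements retained peaks, and 5 of its elements had a strongest peak in all dTAG-13 and no DMSO library. Weaker peaks often stayed. Any deposited peak was found at 335, 340 and 327 MMERVK10C elements in DMSO and 70, 278 and 279 in dTAG-13, and at 151, 160 and 145 MMERVK9C elements in DMSO and 10, 53 and 60 in dTAG-13.

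The ERV result depended on equal numbers of peaks. Cutting each list at the same covered length, 4.89 Mb, left 1344, 803 and 1047 peaks in DMSO and 10000, 2808 and 1784 in dTAG-13. MMERVK10C then had 14, 6 and 10 elements with a peak in DMSO and 70, 34 and 8 in dTAG-13, and MMETn had 23, 7 and 17 and then 44, 17 and 1, so both the direction and the separation were lost. This cut changes number and width together, and their parts were not tested. Among the 10000 strongest peaks, measures that do not grow with width kept the direction. The midpoint of 4.50%, 4.13% and 4.13% of strongest peaks lay in a listed element in DMSO and of 1.46%, 2.04% and 1.33% in dTAG-13. Of the covered bases, 3.01%, 3.4% and 3.15% lay in the elements in DMSO and 0.974%, 1.63% and 1.13% in dTAG-13. At equal covered length the groups overlapped in both. There the midpoints were 2.16%, 0.996% and 1.81% in DMSO and 1.46%, 1.85% and 0.392% in dTAG-13, and the covered bases 1.07%, 0.901% and 0.887% and then 0.974%, 1.13% and 0.348%.

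The place of the peaks within the elements also differed between subfamilies. In DMSO the coverage of MMERVK10C had a maximum on either side of the centre, 2.25 kb toward the 5′ end (17.8%, 31.2% and 22.3% of elements covered) and 2.75 kb toward the 3′ end (20.6%, 25.8% and 21.8%). MMERVK10D3 had 1 maximum, 1.5 kb toward the 3′ end, where 46.7%, 51.7% and 53.3% of elements were covered in DMSO and 0%, 6.67% and 3.33% in dTAG-13. MMETn was highest near its centre, with 21.1%, 36.2% and 26.3% covered in DMSO and 2.7%, 10.3% and 5.84% in dTAG-13 at 0.25 kb toward the 3′ end. The median listed MMETn element is 1.63 kb long, and the position 5 kb upstream of the centre was covered at 11.7%, 12.8% and 11.9% of elements in DMSO and 0%, 1.12% and 0.899% in dTAG-13. Whether those peaks were the same as at the element was not tested.

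**Figure D4:**
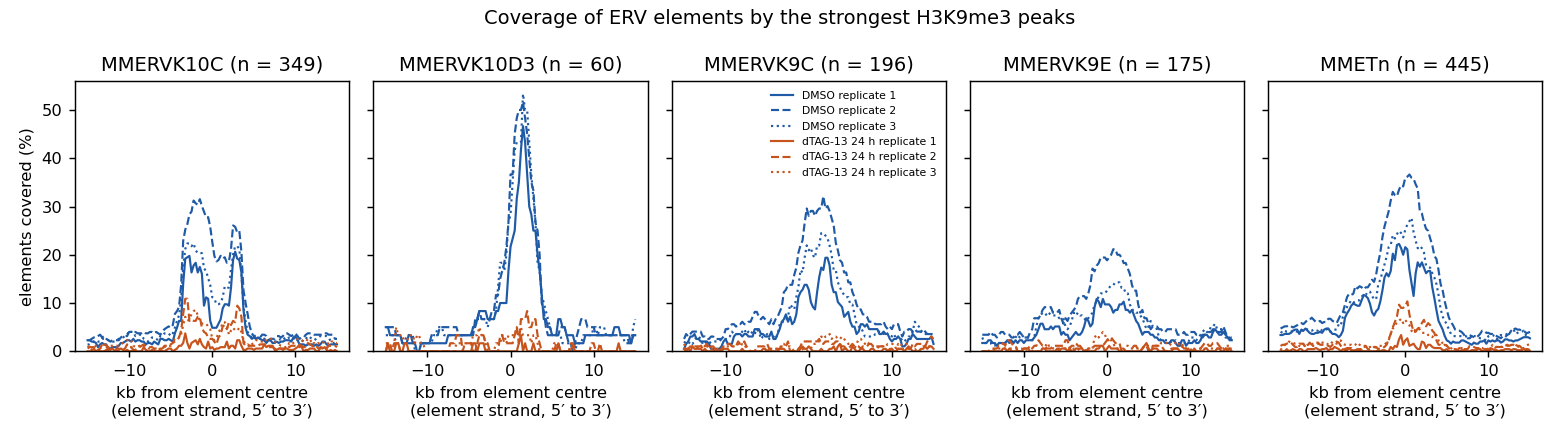
Share of elements (y axis, %) covered by a strongest H3K9me3 peak at each distance from the element's centre (x axis, kb, read along the element's strand), 1 panel per subfamily and 1 line per library, DMSO in blue and 24 h dTAG-13 in orange. DMSO lines peak on both sides of the centre in MMERVK10C and 1.5 kb toward the 3′ end in MMERVK10D3, at 46.7% to 53.3%, and the dTAG-13 lines stay far below them.

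Few super-enhancers, the clustered enhancers of cell identity genes, had a strongest H3K9me3 peak. One overlapped 5, 5 and 3 of 231 in DMSO and 1, 2 and 0 in dTAG-13, while a deposited peak of any strength overlapped 50, 49 and 41 and then 1, 15 and 10. The 20 pluripotency genes had no strongest peak in any of the 6 libraries. Of the 21 genes encoding H3K9me3 writers, readers and TRIM28 partners only Fam208a had one, in dTAG-13 replicate 2.

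Of the gene lists and families counted, imprinted genes showed the largest difference. A strongest peak lay in or within 2 kb of the start of 10, 10 and 12 of 23 imprinted genes with a germline methylated region in DMSO and of 1, 2 and 2 in dTAG-13 (difference -39.1 points, exact permutation p = 0.1, no overlap). Over all 54409 genes it was 2585, 3121 and 2868 in DMSO and 1755, 2230 and 2155 in dTAG-13 (-1.49 points), with 658 lost in the strict sense (1.21%), 217 gained (0.399%) and 407 with one in all 6 libraries (0.748%). Nnat, Gnas, Nespas, Mest, Nap1l5 and H19 had a strongest peak in every DMSO library and none in dTAG-13, and no imprinted gene showed the reverse. Kcnq1ot1, a noncoding RNA that silences its neighbors on the paternal chromosome, had one in all 6 libraries.

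The lost imprinted regions carried similar values. The region shared by Gnas and its antisense transcript Nespas, chr2:174294160-174301102, had fold enrichments of 4.44, 3.77 and 3.62 in DMSO and a deposited peak of 2.47 in dTAG-13 replicate 2 alone. The Mest region, chr6:30734927-30741699, had 6.32, 5.31 and 4.92 in DMSO and 2.51 in dTAG-13 replicate 2 alone. The Nap1l5 region, chr6:58904552-58912440, had 5.64, 4.89 and 4.17 in DMSO and 2.97 and 2.81 in dTAG-13 replicates 2 and 3. The H19 region, chr7:142578217-142583745, 2.84 kb from the H19 start and over no exon, had 5.31, 4.87 and 4.40 in DMSO and 2.99 and 2.11 in dTAG-13 replicates 2 and 3. Over their whole length the Gnas, Mest, Nap1l5, H19 and Nnat regions held 14, 12, 6, 6 and 8 matches to TGCCGC.

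The kept Kcnq1ot1 region differed from them. It spanned chr7:143217836-143232540, overlapped an exon and held no match to TGCCGC. Its middle lay 71.4 kb from the Kcnq1ot1 start, far inside the transcript, against 14.8 kb for Mest and 2.84 kb for H19. Whether it includes the germline methylated region was not tested, so it may be no counterpart of the lost regions. It had fold enrichments of 5.5, 4.78 and 4.53 in DMSO and 4.70, 3.85 and 4.64 in dTAG-13. It was covered over 5824, 12315 and 14393 bp in DMSO and 7107, 12651 and 9865 bp in dTAG-13, so the groups overlapped in breadth. Absence of the letters says nothing about the factors bound there.

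Fewer zinc finger genes had a strongest peak after TRIM28 loss, and at Vmn2r genes, which encode vomeronasal receptors, the genes with one were partly different. Of 420 Zfp genes, 67, 83 and 81 had a strongest peak in DMSO and 19, 12 and 31 in dTAG-13 (difference -13.4 points, exact permutation p = 0.1), with 23 lost in the strict sense (5.48%), none gained and 2 with a peak in all 6 libraries. Of 1407 olfactory receptor (Olfr) genes, 37, 44 and 36 had one in DMSO and 5, 20 and 16 in dTAG-13 (-1.80 points, exact permutation p = 0.1), near the -1.49 points of all genes. Of 243 Vmn2r genes, 28, 45 and 35 had one in DMSO and 38, 41 and 44 in dTAG-13. There 11 genes (4.53%) went from none to all 3 libraries, 6 (2.47%) went the other way, and 5 had one in all 6 libraries. Of 327 Vmn1r genes, 7, 13 and 11 had one in DMSO and 4, 13 and 14 in dTAG-13. Among 58 clustered protocadherin genes, which encode adhesion molecules of neurons, 26, 26 and 27 had one in DMSO and 30, 31 and 12 in dTAG-13. The last value alone set the direction, since the difference of -3.45 points became 7.18 points without dTAG-13 replicate 3. Of 14 Pramel and Pramef genes 0, 2 and 2 had one in dTAG-13, of 46 Hox genes 1, 1 and 0 had one in DMSO, and of 18 genes of the 2-cell stage at most 1 had one in any library.

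Marks of active chromatin were more frequent at lost regions after TRIM28 loss. H3K27Ac marks active enhancers and promoters, and MED23 is a subunit of the Mediator complex that links enhancers to RNA polymerase II (RNAPII). These are other libraries than those of H3K9me3, and their strongest peaks were taken by the same ranking, 5000 per library for RNAPII. The labels do not say whether cultures or input controls were shared with the H3K9me3 libraries. H3K27Ac overlapped 2.68%, 2.79% and 2.84% of the 1793 lost regions in DMSO and 8.09%, 8.20% and 12.0% in dTAG-13 (6.66 points, exact permutation p = 0.1, no overlap). At kept regions it overlapped 2.4%, 2.53% and 2.65% and then 3.67%, 2.91% and 5.94%. At gained regions it overlapped 0.843%, 0.983% and 0.843% and then 0.562%, 0.843% and 0.843%, which did not differ beyond the spread (exact permutation p = 0.6).

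Among lost regions the difference was larger where a region contained an ERV element. Regions with an element that were not lost were not counted apart, so the part of the element itself was not tested. Over all merged regions H3K27Ac overlapped 2.45%, 2.18% and 2.09% in DMSO and 2.82%, 3.09% and 3.75% in dTAG-13. Of the 153 lost regions with an MMERVK or MMETn element, 4.58%, 6.54% and 7.19% carried H3K27Ac in DMSO and 32.0%, 34.0% and 46.4% in dTAG-13. Of the 1640 without one, 2.5%, 2.44% and 2.44% carried it in DMSO and 5.85%, 5.79% and 8.78% in dTAG-13. Regions with H3K27Ac in all 3 dTAG-13 and no DMSO library numbered 70 among the lost regions (3.90%), 34 of them with an element. They numbered 4 among the kept, 0 among the gained and 185 among all merged regions (0.75%). The Nnat region went the other way, with H3K27Ac in all 3 DMSO libraries and 1 dTAG-13 library.

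MED23 behaved alike, with 2 libraries per group, for which the smallest exact p is 0.33. It overlapped 3.07% and 3.07% of lost regions in DMSO and 12.5% and 12.2% in dTAG-13. With an ERV element the shares were 10.5% and 9.80% in DMSO and 43.8% and 42.5% in dTAG-13. At kept regions they were 2.28% and 2.53% and then 6.07% and 5.69%, and at gained regions 1.54% and 1.26% and then 0.702% and 0.702%. Over all merged regions they were 1.50% and 1.59% in DMSO and 3.92% and 3.87% in dTAG-13, so MED23 was also more frequent there. MED23 in both dTAG-13 and no DMSO library was found at 159 lost regions (8.87%) and 595 of all merged regions (2.41%). Both marks were found in this way at 57 of the 1793 lost regions, 29 of them with an element. They were found so at 2 kept, 0 gained and 137 of all 24673 merged regions. RNAPII was rare, at 0.335% and 0.112% of lost regions in DMSO and 0.892% and 0.948% in dTAG-13.

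**Figure D5:**
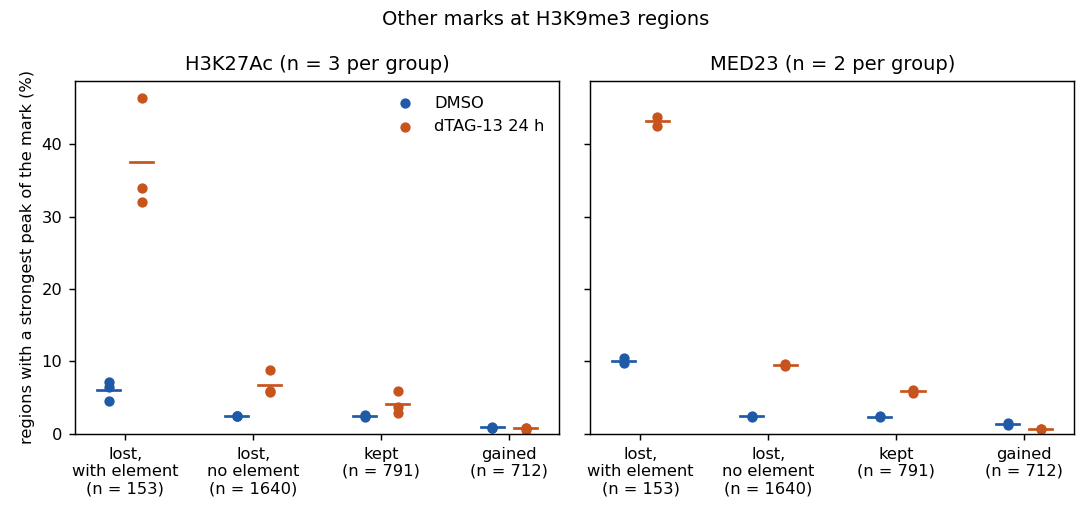
Share of H3K9me3 regions (y axis, %) overlapped by a strongest H3K27Ac peak (left) or MED23 peak (right), for lost regions with and without an MMERVK or MMETn element, kept and gained regions, 1 point per library with the group mean as a bar. Lost regions with an element rise from 4.58% to 7.19% in DMSO to 32.0% to 46.4% in dTAG-13 for H3K27Ac, while gained regions stay at 0.983% or below.

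Genes with lost regions were called higher in RNA in a larger share than all genes. RNA-seq values of 15 libraries were fitted together by limma on log2(TPM + 0.5), and a gene was called at an adjusted p below 0.05 and over 2-fold. In bulk samples fewer cells with a transcript and less RNA per cell cannot be told apart. Of the 17922 genes tested, 1819 were higher (10.1%) and 360 lower (2.01%) at 24 h. A lost region lay in or within 2 kb of the start of 765 genes, of which 373 could be tested, with 59 higher (15.8%) and 3 lower and a median log2 difference of 0.36 against 0.13 over all genes. Of the 88 tested genes at kept regions 10 were higher and 1 lower (median 0.11), and of the 68 at gained regions 3 were higher and 1 lower (median 0.18). Since TPM is a share, a scaling that centres each library on its median gene shifted all differences by -0.29. It left 886 genes higher (4.94%) and 919 lower, so that 49.1% of calls were rises instead of 83.5%, with 30 higher (8.04%) and 10 lower at lost regions. The median at lost regions stayed 0.23 above that of all genes under both.

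By 96 h calls were more frequent in both directions. Then 3634 of all genes were higher (20.3%) and 2228 lower (12.4%), and at lost regions 98 were higher (26.3%) and 56 lower (15.0%). The cells had changed by then. The 5 pluripotency markers summed to 1701 to 1768 TPM in DMSO, 957 to 1046 TPM at 24 h and 177 to 205 TPM at 96 h. Pou5f1 made up most of the DMSO sum and fell at 24 h, as did Sox2, Zfp42 and Esrrb. Nanog went the other way at 24 h, from 135, 142 and 132 TPM in DMSO to 208, 198 and 191 TPM. At 96 h Nanog was at 30.1, 33.5 and 35.4 TPM. The sum of the 6 feeder markers, led by Col1a1, was 24.5 to 26.9 TPM at 24 h and 263 to 286 TPM at 96 h, with Lum at 0.490 TPM or below throughout. The part of these changes in the 96 h values was not tested.

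The named genes with a lost region and the largest rises at 24 h were 8 in number. Mest, an imprinted hydrolase gene expressed from the paternal chromosome, went from 0.307, 0.534 and 0.484 TPM in DMSO to 7.36, 5.01 and 5.55 TPM (log2 difference 2.77, SE 0.13, limma adjusted p = 5.7e-10) and reached 59.3, 62.5 and 67.0 TPM at 96 h. H19, an imprinted noncoding RNA expressed from the maternal chromosome, went from 6.85, 8.05 and 6.99 TPM to 33.6, 29.1 and 33.5 TPM (log2 difference 2.06, SE 0.11, limma adjusted p = 1.4e-09). Gm49394 went from 8.92, 5.53 and 0.542 TPM to 58.1, 51.9 and 47.6 TPM, a gene model on the strand and position of the growth factor gene Igf2, from which its reads may not be separable. It also overlaps Igf2os. Every 24 h library of these 3 genes lay above every DMSO library, which their choice as the largest called rises makes likely.

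The other 5 rises were of unnamed transcripts. Gm4316, whose lost region holds an MMERVK10D3 element, went from 1.78, 1.90 and 1.88 TPM to 13.6, 15.6 and 16.4 TPM. Gm4425, whose lost region holds an MMETn element, went from 2.06, 1.37 and 1.99 TPM to 9.14, 10.8 and 10.6 TPM. Gm40663, Gm12865 and CT033750.2 rose by log2 differences of 2.68, 2.34 and 2.08. Gm4316 and Gm4425 were lower again at 96 h, at 5.43 to 5.70 and 4.81 to 5.29 TPM.

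Other imprinted genes with a lost region changed less. Gnas, which encodes a G protein subunit, went from 265, 269 and 259 TPM to 393, 356 and 376 TPM (log2 difference 0.50, SE 0.04, limma adjusted p = 2.6e-07), under 2-fold. Nnat went from 0.760, 1.13 and 1.29 TPM to 1.67, 2.22 and 2.17 TPM and reached 17.7 to 21.4 TPM at 96 h. Nespas went from 2.66, 2.03 and 2.11 TPM to 2.75, 4.89 and 4.43 TPM, with a log2 difference of 0.68. Nap1l5 was listed at 0 in all 3 DMSO libraries and could not be tested. Of the 20 imprinted genes tested 4 were called higher and 1 lower at 24 h. Of the higher ones Mest and H19 had a lost region, while Plagl1 (log2 difference 1.23) and Airn (1.41) had none by the strict rule. Neither had a strongest peak in every DMSO library. The highest fold enrichment at Plagl1 was still 3.44, 3.35 and 2.84 in DMSO, with no deposited peak in dTAG-13. At Airn it was 3.86, 3.23 and 3.29 in DMSO and 2.57 and 2.16 in dTAG-13 replicates 2 and 3. The imprinted gene called lower was Snrpn, also without a lost region, at 218, 209 and 204 TPM in DMSO and 98.7, 92.2 and 97.4 TPM.

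Only 3 tested genes with a lost region were called lower. Slc7a11, the cystine transporter, went from 1.18, 1.07 and 1.11 TPM to 0.0217, 0.140 and 0.0933 TPM (log2 difference -1.47, SE 0.11, limma adjusted p = 3.9e-08), and its lost region lay in an intron 445 kb from the annotated start of the gene. Ap4s1, an adaptor complex subunit, fell by 1.08 on the log2 scale and Neto2, an auxiliary subunit of kainate receptors, by 1.02. The count was 5 without RNA-seq replicate 2 or replicate 3 of 24 h dTAG-13, and 6 where regions were called without H3K9me3 DMSO replicate 1 or replicate 3. Of the 23 Zfp genes that lost their peaks 22 could be tested, and 2 were higher and 0 lower at 24 h, beside 26 higher and 5 lower of all 387 tested Zfp genes.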

How the data were processed

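H3K9me3, H3K27Ac, MED23 and RNAPII ChIP–seq peaks and RNA-seq of TRIM28-FKBP mESCs were used. Drosophila S2 cells were added before ChIP. For ChIP–seq the submitters' processing notes name cutadapt 2.4, BWA, SAMtools, GATK 4.1.4.1, MACS2, deepTools 3.4.3 and the builds mm10 and dm6. Settings and any scaling by the Drosophila reads are not given in the sources used here, so a change in total H3K9me3 cannot be read from these lists. The deposited peak lists give fold enrichment (a ratio to background) and −log10 p and q. RNA values are the authors' TPM, for which the notes name STAR 2.7.5a and StringTie 2.0.6.

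The 10000 strongest peaks by fold enrichment were taken per library (5000 for RNAPII), overlap meant at least 1 bp, and genes came from the StringTie table. Of 54409 genes, 98.3% lay at their GENCODE vM21 position. Libraries were the unit of two-sided exact permutation tests. Windows and genes were tested with limma 3.58.1 (R 4.3.3), adjusted by Benjamini-Hochberg, after a test on simulated data. Python 3.11.15, numpy 2.4.6, pandas 2.3.3 and matplotlib 3.10.9 did the rest.

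Named were the 10 lost, 5 kept and 5 gained regions with the highest mean fold enrichment in the group that has them, the 8 largest rises and 4 largest falls called in RNA at 24 h among genes with a lost region (3 falls were called), list genes with a strongest peak in every library of 1 group and none of the other, and the 5 largest window changes each way. The members and lists were chosen with earlier results of these data known. Alternatives changed the number of peaks, the ranking, the minimum −log10 q, covered length, window size, RNA pseudocount, filter and scaling, or left out libraries. Replacing peaks by 500 bp around their midpoints, and calling regions without each library for the RNA counts, were chosen after seeing the data. Shortened element lists were not used. IAP elements were not analysed here.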

Additional observations from a re-analysis of the deposited data

Results flagged for a closer look

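Slc7a11, Nespas and Neto2 moved in opposite directions at the 2 time points, every treated library lying on 1 side of the DMSO libraries at 24 h and on the other side at 96 h. The difference between the time points was not tested. The log2 difference of Slc7a11 RNA from DMSO was -1.47 at 24 h and 1.95 at 96 h, that of Nespas 0.68 and -1.02, and that of Neto2 -1.02 and 0.098. The 96 h difference of Neto2 did not pass the test (limma adjusted p = 0.16), and with each library centred on its median gene it was -0.18, the same direction as at 24 h.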

How the results depend on the processing

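The values that answer a comparison were recomputed under each alternative. Of these, 653 were differences that did not turn or counts that stayed within 1.5 times, 59 counts moved by over 1.5 times and 39 differences turned. The size of a difference was not part of this check, so one that did not turn may still have shrunk. The causes were not tested unless stated. Values below are dTAG-13 minus DMSO in percentage points unless a unit is given. Without peak numbers held equal, over all deposited peaks, 12521 regions were lost, 30 gained and 5725 kept, and 0 windows were called higher and 0 lower. There the share near gene starts differed by 0.20, the median distance by 1.63 kb, Vmn2r genes by -20.0, Pramel and Pramef genes by -9.52, 2-cell genes by -14.8, writers, readers and partners by -22.2, and H3K27Ac at kept regions by -0.66. With the 5000 strongest peaks 1163 regions were lost, 433 gained and 200 kept, 67 windows were higher and 168 lower, and near gene starts, inside and outside genes the differences were 0.22, 0.91 and -1.13. With a −log10 q of at least 5, which leaves unequal numbers, 3144 regions were lost, 14 gained and 271 kept, 16 windows were higher, and the 3 positions differed by 4.55, 3.56 and -8.11, Vmn2r genes by -7.96, 2-cell genes by -1.85 and H3K27Ac at gained regions by 2.38. At equal covered length, which leaves DMSO fewer peaks, 84 regions were lost, 360 gained and 31 kept and 81 windows were lower. Then MMERVK10C differed by 7.83, MMERVK9C by 0.17, MMERVK9E by 0.57, MMETn by 1.12 and super-enhancers by 0.14. Protocadherin genes differed by 28.2, all genes by 1.35 and peaks inside genes by 1.25. MMERVK10D3 kept its direction but little of its size, with a mean of 2.67 elements with a peak in DMSO and 2.33 in dTAG-13. Ranked by −log10 p, 1325 regions were kept, protocadherin genes differed by 6.90, and H3K27Ac differed by 0.12 at gained and -1.03 at kept regions. With 500 bp around the midpoint, 171 regions were kept, peaks near gene starts differed by 1.41 and outside genes by -0.42, and H3K27Ac at gained regions by 0.16. That setting and equal covered length fix width or length by construction, so those values were not recomputed. Within 10 kb of a gene start Vmn2r genes differed by -0.55 and 2-cell genes by -9.26. The distance to the nearest start of a gene with RNA differed by 80.6 kb. Over all deposited peaks of the other mark, RNAPII differed by -0.36 at lost and -0.35 at gained regions and MED23 by -3.67 at kept regions. With 5 Mb windows 57 were higher, of fewer tested, and by covered kb 26 were higher and 1387 lower.

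For RNA, centring the libraries gave 886 higher and 919 lower at 24 h, 3364 lower at 96 h, 30 higher and 10 lower at lost regions, 2 higher at kept regions and a log2 difference of -0.18 for Neto2 at 96 h. A mean of at least 5 TPM, which tests fewer genes, gave 788 higher and 197 lower at 24 h, 2241 and 1311 at 96 h, 24 higher at lost regions at 24 h and 48 at 96 h, 5 at kept and 1 at gained regions. A pseudocount of 0.1 gave 5 lower at lost and 7 higher at gained regions, and one of 1 gave 1 lower at lost and 6 higher at kept regions.

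Leaving out 1 library at a time gave 2015 to 2693 lost, 817 to 1902 gained and 803 to 1367 kept regions, 41 to 211 windows higher and 57 to 460 lower, differences of -0.595 to 0.185 near gene starts, -1.575 to 0.065 inside genes and -9.20 to 7.18 for protocadherin genes, and 2 to 6 genes lower at lost regions.

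With the replicate number as a block (replicate block) 110 windows were higher and 241 lower, and 1821 genes higher and 364 lower at 24 h. The exact test over 3 pairs cannot go below 0.25, and the block moved no other count by over 1.5 times. Deviations of same-numbered libraries correlated at 0.0041, -0.081 and 0.020 over windows and at -0.058 to 0.065 over RNA, and not every sample correlated best with its own number, so the numbers were not taken as pairs.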
